A study of Mus musculus with 16 samples.

Results

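The genes described here are the light chain and the classical heavy chains of MHC class I in C57BL/6 mice: B2m, H2-K1 and H2-D1, 3 of the 32285 genes of the count matrices. They were taken by symbol from all 8 matrices, and their levels were followed in immune, stromal and melanoma cells. Tumours grew under the skin of C57BL/6J mice, each started from 1000000 cells of the Bro4.1 line of B16, a mouse melanoma, a single line in control or B2m-null form. On days 6, 9 and 12 the mice were given 100 µg of antibody into the peritoneal cavity, either an anti-CD40 agonist or its rat IgG2a isotype, and tumours were collected on day 14. The groups were control tumours under isotype (control isotype, 5 mice), control tumours under anti-CD40 (control CD40, 2 mice), B2m-null tumours under isotype (B2m-null isotype, 5 mice) and B2m-null tumours under anti-CD40 (B2m-null CD40, 4 mice). By the sample labels the mouse carries the genotype, but by the design text the implanted cells lack B2m, and the design text was followed: host cells of every group should then carry intact B2m. Cells were enriched on CD45 beads, marked with 1 hashtag antibody per mouse and pooled, and each pool was run on 1 lane, except that the control CD40 pool was run on 2 technical lanes.

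MHC class I displays peptides from inside the cell to CD8 T cells and engages inhibitory receptors of NK cells. Its heavy chains, H2-K and H2-D, need the light chain, beta-2 microglobulin, to fold stably and reach the surface, and peptides are cut by the proteasome, moved by the TAP transporter and loaded with tapasin. B16 cells are known for low class I at rest that interferon can raise, through IRF1 and the transactivator NLRC5. An agonistic antibody to CD40 stimulates antigen-presenting cells such as macrophages, dendritic cells and B cells.

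The loci are B2m (ENSMUSG00000060802) at chr2:122147686-122153083 on the plus strand with 4 exons, H2-K1 (ENSMUSG00000061232) at chr17:33996017-34000347 on the minus strand with 8 exons, and H2-D1 (ENSMUSG00000073411) at chr17:35262730-35267499 on the plus strand with 8 exons, all in build mm10 as annotated by GENCODE. All of them are protein-coding. Their promoters are shown because the members move together below. Each window runs from 250 bases before to 50 after the RefSeq start site in GRCm38.p6, which for H2-D1 lies 364 bases from the GENCODE start. Capitals mark the motifs searched on both strands: the core TTTCNNTT of the interferon-stimulated response element (ISRE), the kappa B consensus, the cyclic AMP response core TGACG and the CCAAT box. The windows are chr2:122147437-122147736 for B2m, chr17:34000298-34000597 for H2-K1 and chr17:35262844-35263143 for H2-D1.
B2m: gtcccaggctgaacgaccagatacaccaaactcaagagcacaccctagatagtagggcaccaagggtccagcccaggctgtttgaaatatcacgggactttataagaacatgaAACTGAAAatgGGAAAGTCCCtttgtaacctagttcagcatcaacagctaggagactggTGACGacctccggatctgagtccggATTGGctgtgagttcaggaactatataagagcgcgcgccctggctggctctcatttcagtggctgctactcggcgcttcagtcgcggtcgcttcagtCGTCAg
H2-K1: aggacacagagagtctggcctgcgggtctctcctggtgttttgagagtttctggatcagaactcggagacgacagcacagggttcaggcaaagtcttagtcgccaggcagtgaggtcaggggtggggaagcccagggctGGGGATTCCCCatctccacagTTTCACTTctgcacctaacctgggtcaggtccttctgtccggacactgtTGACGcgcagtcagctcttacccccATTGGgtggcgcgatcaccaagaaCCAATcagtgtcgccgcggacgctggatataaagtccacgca
H2-D1: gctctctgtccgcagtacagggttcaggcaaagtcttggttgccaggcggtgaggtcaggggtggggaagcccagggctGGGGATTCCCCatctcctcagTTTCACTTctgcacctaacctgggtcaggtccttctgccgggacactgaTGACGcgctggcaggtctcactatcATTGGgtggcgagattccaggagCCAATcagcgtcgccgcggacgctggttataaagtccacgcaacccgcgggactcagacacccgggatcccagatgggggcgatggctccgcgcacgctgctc
All 3 windows held every one of the 4 motifs. Over 32851 RefSeq promoters of that length, 23.9% held the ISRE core, 8.46% the kappa B consensus, 20.8% TGACG, 37.4% CCAAT, and 36 promoters, or 0.110%, all 4. In H2-K1 and H2-D1 the kappa B match (GGGGATTCCCC, read on either strand) lay before an ISRE core with the letters TTTCACTT, at -90 to -83 in H2-K1 and -150 to -143 in H2-D1 from the RefSeq start. In B2m the order was the opposite, with the ISRE core at -137 to -130 and the kappa B match at -126 to -117. A match describes these letters and is no measure of binding.

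Depth over the 8 lanes was 541098978 unique molecular identifiers (UMIs, counted molecules) in 116552 barcodes, from 45985739 to 99264875 a lane. After removal of 13116 hashtag doublets and low-quality cells, 63341 cells fell into 1 marker-gated class each, and 51139 of them had an assigned mouse. No pair of lanes shared more than 92 barcodes, 0.521% of those of the first. The main unit was the mouse, with counts of a class summed over its cells and given as counts per 1000000 (CPM). A mouse was assigned to 41.7% of kept cells in B2m-null isotype replicate 1, 62.2% in B2m-null CD40 replicate 1 and 82.5% to 95.9% in the other lanes.

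Transcripts of all 3 members were found in every gated class, and melanoma cells stood lowest. Over mice, median B2m ran from 1267 CPM in melanoma cells and 1937 CPM in cDC1, the cross-presenting dendritic cells, to 4508 CPM in mature dendritic cells and 4745 CPM in fibroblasts. Between them lay monocytes (3840 CPM), macrophages (3792 CPM), neutrophils (3514 CPM), NK cells (3289 CPM), plasmacytoid dendritic cells (pDC, 3267 CPM), CD4 T cells (3142 CPM), CD8 T cells (2816 CPM), B cells (2770 CPM) and cDC2 (2681 CPM). Of the 12 neighbouring pairs in that order, 5 differed within mice by a two-sided exact sign-flip test at adjusted p under 0.05: mature dendritic cells above monocytes, CD4 above CD8 T cells, CD8 T above B cells, cDC2 above cDC1, and cDC1 above melanoma cells. The last pair pools genotypes of the tumour cells. Melanoma B2m was 1516 ± 402 CPM (SD, n = 5) in control isotype, where cDC1 had 2000 ± 107 CPM (SD, n = 5) and the ranges overlapped, and 248 ± 38.5 CPM (SD, n = 3) in B2m-null isotype. After thinning each cell to 1000 UMIs, with shallower cells left out, that pair differed by 0.66 on the log2 scale in place of 1.21. There cDC1 was higher in 6 of 9 mice in place of 9 of 9, and the pair no longer passed (adjusted p = 0.080, exact test). Of the others 6 did not pass, and fibroblasts against mature dendritic cells, with 2 shared mice, were not tested. The medians pool mice whose groups differ between classes: CD40 mice were 4 of 5 for fibroblasts, 4 of 7 for B cells, 2 of 11 for mature dendritic cells, 2 of 12 for cDC2, 1 of 11 for cDC1 and 0 of 8 for pDC. Within shared mice 4 neighbouring pairs ran against the order of medians, none of them with a test that passed. Fibroblasts were above mature dendritic cells in 0 of 2 mice (mean log2 -0.32), B cells above cDC2 in 0 of 4 (-0.20), monocytes above macrophages in 6 of 16 (-0.05) and NK cells above pDC in 3 of 8 (-0.07). No fibroblast mouse was B2m-null isotype: 5 of 81 fibroblasts of its first lane and 8 of 17 of its second had a mouse assigned, under the minimum of 20 cells a mouse. Over lanes, which hold all groups, fibroblasts ranked 5 for B2m, 6 for H2-K1 and 8 for H2-D1, and mature dendritic cells led for B2m and H2-D1.

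H2-K1 was ordered differently, with lymphocytes high. Fibroblasts (4465 CPM), NK cells (4198 CPM), CD4 T cells (3912 CPM), mature dendritic cells (3808 CPM) and CD8 T cells (3386 CPM) led, then B cells (3097 CPM), pDC (3055 CPM), monocytes (2661 CPM), macrophages (2618 CPM), neutrophils (2219 CPM), cDC2 (1988 CPM), cDC1 (1604 CPM) and melanoma cells (501 CPM). Of the neighbouring pairs, 3 differed by the same exact test: pDC above monocytes, cDC2 above cDC1, and cDC1 above melanoma cells. H2-D1 spread less. Its medians ran from 565 CPM in melanoma cells and 1403 CPM in cDC1 through B cells (1443 CPM), CD8 T cells (1492 CPM), cDC2 (1720 CPM), macrophages (1913 CPM), pDC (2074 CPM), CD4 T cells (2079 CPM), monocytes (2137 CPM), NK cells (2184 CPM) and neutrophils (2255 CPM) to mature dendritic cells (2498 CPM) and fibroblasts (3113 CPM). There 1 neighbouring pair differed, cDC1 above melanoma cells. Within shared mice some neighbours ran against the order of medians, none of them with a test that passed. For H2-K1 fibroblasts were above NK cells in 2 of 5 mice (mean log2 -0.03). CD4 T cells were above mature dendritic cells in 4 of 7 (-0.04), and B cells above pDC in 1 of 3 (-0.19). For H2-D1 fibroblasts were above mature dendritic cells in 0 of 2 (-0.19) and CD4 T cells above pDC in 1 of 6 (-0.17). Over 7 lanes the smallest exact p is 0.016, which cannot pass for a single pair among 15, so lanes give folds without a verdict. For B2m, mature dendritic cells were above monocytes in 7 of 7 lanes (mean log2 0.31), CD8 T above B cells in 6 of 7 (0.34) and cDC1 above melanoma cells in 7 of 7 (1.93), and for H2-K1 cDC2 was above cDC1 in 7 of 7 (0.37).

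**Figure D1:**
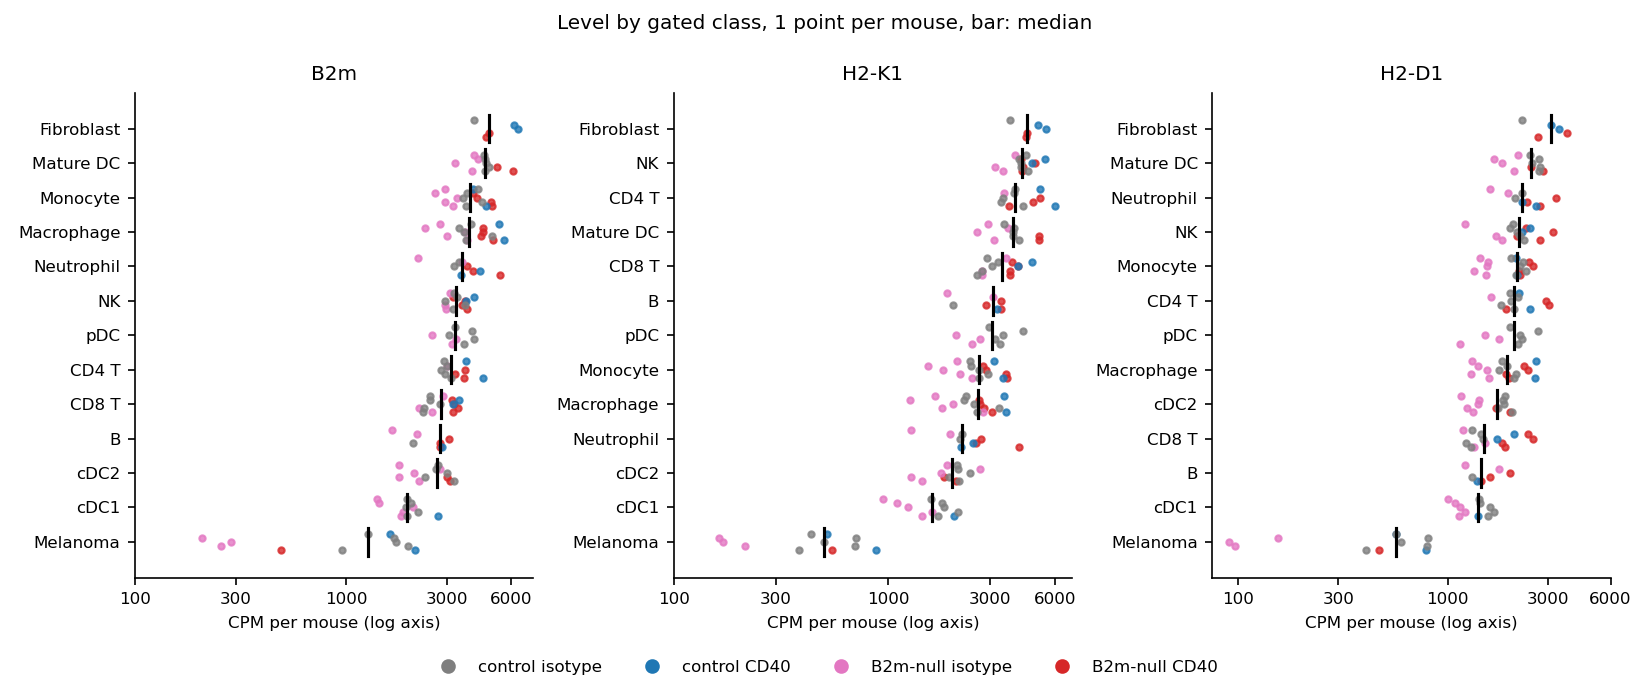
CPM of each member (x axis, log scale) in each gated class (y axis, ordered by the median), with 1 point per mouse coloured by group and a bar at the median over mice. Melanoma cells lie lowest for every member, and the B2m-null isotype mice (pink) lie at the low end in most classes.

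The balance of the heavy chains leaned to H2-K1 in lymphoid cells. Tags come from 3' ends and are not divided by length, so ratios of UMIs are compared between classes and not read as protein stoichiometry. H2-K1 to H2-D1 had a geometric mean of 2.07 in CD8 T cells (n = 14 mice), 1.97 in NK cells, 1.94 in CD4 T cells and 1.83 in B cells, against 1.31 in macrophages (n = 16), 1.32 in monocytes and 0.996 in neutrophils (n = 9). Against macrophages of the same mouse the ratio was higher in 14 of 14 mice for CD8 T cells, 13 of 14 for NK cells, 11 of 11 for CD4 T cells and 7 of 7 for B cells (two-sided exact sign-flip test, adjusted p = 0.00079, 0.0011, 0.0032 and 0.025). It was also higher in mature dendritic cells (1.57, 10 of 11 mice) and pDC (1.56, 8 of 8 mice), and lower in neutrophils in 8 of 9 mice (each adjusted p = 0.015 by the same exact test). In cDC1 it was 1.17 and lower (adjusted p = 0.034, exact test). Counted over 13 comparisons of each ratio, these p values are adjusted by Benjamini-Hochberg. Fibroblasts leaned to H2-K1 too (1.53, higher in 5 of 5 mice), but 5 mice cannot go below p = 0.0625 (exact). Melanoma cells had 1.08 and were higher in 2 of 11 mice (adjusted p = 0.060, exact test). Over lanes fibroblasts had 1.55, higher in 7 of 7, and melanoma cells 0.819, higher in 0 of 7. Each of these lane differences passed (adjusted p = 0.028, exact sign-flip test over lanes).

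The ratio also varied by pool. In macrophages it was 1.55 and 1.47 in the mice of B2m-null CD40 pool 1, against 1.11 and 1.14 in those of pool 2. CD8 T cells of the same mice showed the same split, with 1.98 and 2.04 against 1.58 and 1.56. The pools therefore did not overlap in either class, and a pool is also a lane. In control isotype, macrophages had 1.55, 1.42 and 1.17 in the first pool and 1.27 and 1.25 in the second, which overlap. In B2m-null isotype they had 1.26, 1.76 and 1.38 in the first pool and 1.30 and 0.906 in the second, which overlap as well. Of the tag-bearing 3' ends (last 500 bases), 0% of B2m, 0.443% of H2-K1 and 9.53% of H2-D1 stretches of 50 bases recur exactly in other genes. No single gene held more than 4.88% of the H2-D1 stretches. Near-identical stretches were not counted, and an effect of ambiguous reads on the ratios was not tested.

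B2m against the sum of the heavy chains went the other way. H2-K1 is part of that sum and also the numerator of the ratio above, so the ratios are not independent. The ratio of B2m to H2-D1 alone was not tested. Its geometric mean was 0.897 in macrophages and 0.822 in monocytes, and 0.563 in CD8 T, 0.526 in NK, 0.514 in CD4 T and 0.567 in B cells. In each of these lymphoid classes it was below macrophages in every mouse (14 of 14, 14 of 14, 11 of 11 and 7 of 7). The adjusted p values were 0.00040, 0.00040, 0.0016 and 0.018 (exact sign-flip test). A ratio below that of macrophages was not particular to lymphoid cells. It was 0.668 in cDC1, 0.679 in pDC, 0.707 in cDC2 and 0.733 in mature dendritic cells. These were above macrophages in 0 of 11, 8, 12 and 11 mice. Neutrophils (0.773) and monocytes were above macrophages in 1 of 9 and 1 of 16 mice. Each of these classes passed the same exact test (adjusted p 0.00040 to 0.010).

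**Figure D2:**
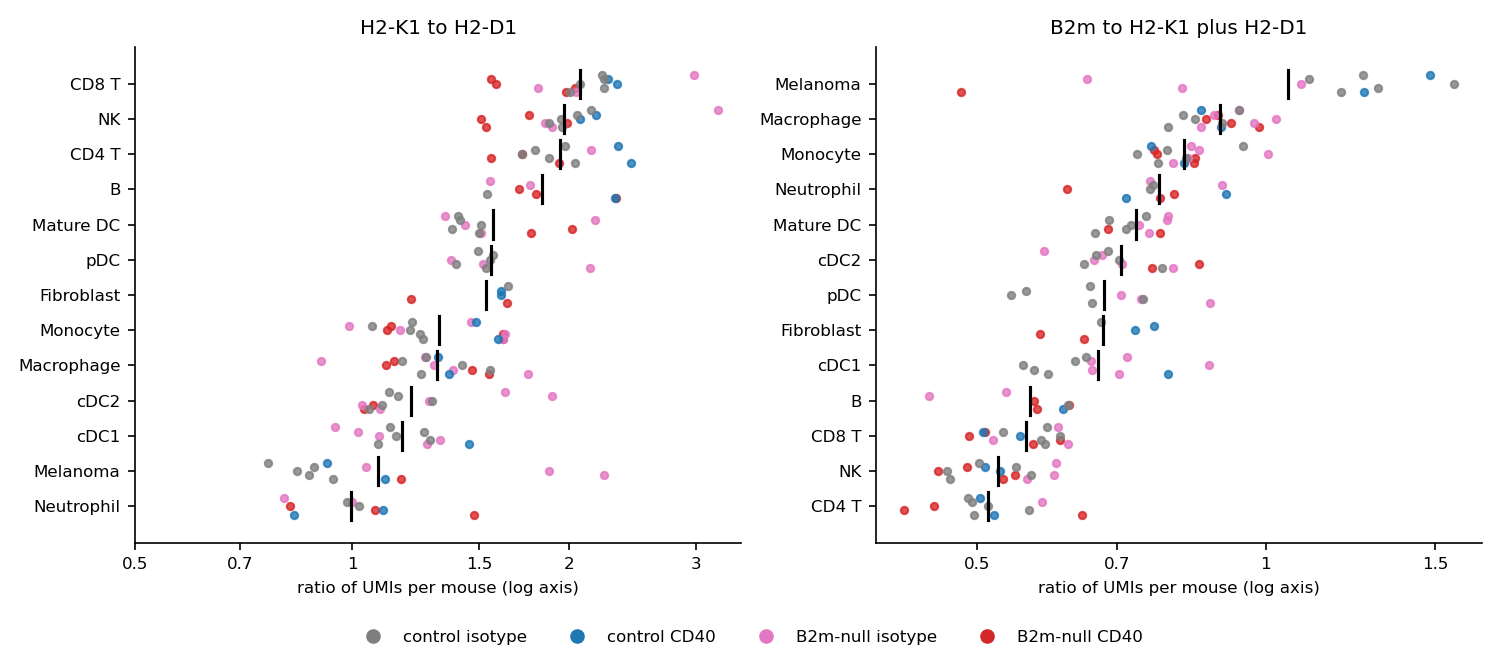
Ratio of UMIs per mouse (x axis, log scale) by class (y axis, ordered by the mean log ratio), for H2-K1 to H2-D1 on the left and B2m to H2-K1 plus H2-D1 on the right. Points are mice coloured by group and bars are geometric means: lymphoid classes lie to the right on the left panel and to the left on the right panel.

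B2m in the gated melanoma cells was set against the tumour genotype given by the design text. All 9 melanoma markers were found in each lane's melanoma cells, at a summed 10167 to 14062 CPM. The cells were gated on these same markers, so their presence is no independent check of identity. Over all such cells of a lane, with or without a hashtag, B2m stood at 1598 and 977 CPM in control isotype (152 and 123 cells) and at 1804 and 1996 CPM in the control CD40 lanes (171 and 230 cells). It stood at 169 and 157 CPM in B2m-null isotype (274 and 130 cells) and at 382 and 434 CPM in B2m-null CD40 (70 and 38 cells). All B2m-null lanes lay below all control lanes. The labels do not place the lesion. The 3' tags can come from a part it leaves in place, and these counts are no measure of intact transcript.

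The heavy chains, which the lesion does not touch by design, were low in B2m-null isotype melanoma cells too. H2-K1 stood at 510 and 311 CPM in control isotype, 565 and 774 CPM in control CD40, 108 and 88.0 CPM in B2m-null isotype, then 359 and 299 CPM in B2m-null CD40. H2-D1 stood at 608 and 406 CPM, 636 and 665 CPM, 116 and 118 CPM, and 405 and 485 CPM in the same order. For H2-K1 and H2-D1 the B2m-null CD40 lanes thus reached or overlapped the lower control isotype lane, which they did not for B2m.

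With lanes as the unit (1 pool in control CD40 and 2 in each other group), edgeR's quasi-likelihood test called all 3 members lower in B2m-null isotype than in control isotype, where 0.933% of 11149 genes were called. B2m fell by 2.98 on the log2 scale (SE 0.21), H2-K1 by 2.07 (SE 0.21) and H2-D1 by 2.11 (SE 0.20), with adjusted p of 6.2e-06, 0.00018 and 9.2e-05. CD40 against isotype in B2m-null tumours gave a rise of all 3, against 1.80% of genes called: B2m 2.71-fold (log2 1.44, SE 0.21, adjusted p = 0.0033), H2-K1 3.62-fold (log2 1.86, SE 0.22, adjusted p = 0.0011) and H2-D1 4.12-fold (log2 2.04, SE 0.20, adjusted p = 0.00033). Without B2m-null CD40 replicate 1 the B2m rise was 1.55 with edgeR's adjusted p at 0.065, and thinning each cell to 1000 UMIs ended that call as well. Control CD40 is 1 pool on these lanes, so comparisons with it are given as fitted values without a test. CD40 against isotype in control tumours was 0.71, 0.83 and 0.52 on the log2 scale for B2m, H2-K1 and H2-D1. B2m-null against control under CD40 was -2.26, -1.04 and -0.59 in the same order.

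Values over mice cover those with at least 10 hashtag-assigned melanoma cells. B2m stood at 308 ± 124 CPM (SD, n = 4) in B2m-null and 1615 ± 396 CPM (SD, n = 7) in control tumours, both treatments together, without overlap among these mice (two-sided exact permutation p = 0.0030, the smallest possible). That lack of overlap depends on the minimum of 10 cells. Of the 5 B2m-null mice with 3 to 7 cells, 4 stood at 27.9 to 370 CPM, but 1 of B2m-null CD40, with 7 cells, stood at 1340 CPM, above 2 control isotype mice (1267 and 952 CPM). H2-D1 stood at 202 ± 179 and 647 ± 153 CPM (exact permutation p = 0.0061) and H2-K1 at 273 ± 184 and 590 ± 177 CPM (exact permutation p = 0.027), with overlap in both. In the edgeR fit over mice under isotype, where 2.18% of 7939 genes were called, B2m fell by 2.72, H2-K1 by 1.64 and H2-D1 by 2.37 on the log2 scale, all called. The H2-K1 call was lost without B2m-null isotype replicate 1 (log2 -1.74, adjusted p = 0.057). Thinning each cell to 1000 UMIs ended the calls of H2-D1 (-1.63, edgeR's adjusted p = 0.11) and H2-K1 (-1.01, adjusted p = 0.29), and B2m stayed called (-1.63). CD40 in control tumours called no member there (log2 0.45, 0.52 and 0.25 for B2m, H2-K1 and H2-D1), against 3.11% of genes. Without control isotype replicate 1, B2m (0.90) and H2-K1 (0.93) were called, and H2-K1 also without control CD40 replicate 1 (0.82) or the filter on low counts (0.55).

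Hashtag assignment moved with the members' levels. As background, antibodies of mouse hashtag reagents are known to bind CD45 and MHC class I. A mouse was assigned to 11.3% and 17.7% of melanoma cells in the B2m-null isotype lanes, 28.6% and 26.3% in B2m-null CD40, 55.9% and 38.2% in control isotype and 61.4% and 63.9% in control CD40. B2m was higher in assigned than in unassigned melanoma cells in each of the 8 lanes, for example 236 against 164 CPM in B2m-null isotype replicate 1, 771 against 347 CPM in B2m-null CD40 replicate 2 and 1853 against 1251 CPM in control isotype replicate 1. H2-K1 was higher in 8 of 8 lanes as well, and H2-D1 in 7 of 8, with 89.7 against 118 CPM in B2m-null isotype replicate 1 as the exception. Unassigned melanoma cells alone kept the order of genotypes, with B2m at 164 and 149 CPM in B2m-null isotype against 1251 and 878 CPM in control isotype. In fibroblasts 6.17% and 47.1% of cells had a mouse in the B2m-null isotype lanes, against 66.7% and 89.3% in control isotype. In macrophages, which carry CD45, the shares were 55.3% and 91.2% against 91.5% and 95.0%. The part of this selection in the values over mice was not tested, and melanoma and stromal cells are therefore given first by lane.

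RNA of leukocytes was found in melanoma cells of every lane. Ptprc, which encodes CD45, stood at 7.15 to 31.8 CPM in melanoma cells, or 1.25% to 3.66% of its level in the leukocytes of the same lane, and the median over 12 pan-leukocyte genes was 1.02% to 3.39%. All 12 were detected in melanoma cells of every lane. Single genes ran from 0.532% (C1qa, control isotype replicate 2) to 14.4% (Cd74, control CD40 replicate 2). B2m in melanoma cells equalled 5.95% and 5.76% of the leukocyte level in B2m-null isotype, 8.78% and 10.6% in B2m-null CD40 and 26.9% to 44.5% in the control lanes. For H2-D1 the same shares were 8.77% and 8.06%, 20.6% and 19.9%, and 21.1% to 31.1%. For H2-K1 they were 5.56% and 5.26%, 11.4% and 9.92%, and 12.2% to 20.4%. All of these exceed the Ptprc share of their lane, which was 2.49% and 1.25% in B2m-null isotype. How much of the members' counts in melanoma cells was leukocyte RNA was not tested.

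Within melanoma cells the balance of light and heavy chains differed by genotype. Over mice, the log2 ratio of B2m to the heavy chains was lower in B2m-null than in control tumours by 0.84 (means -0.46 and 0.38, n = 4 and 7, no overlap among mice with at least 10 cells, exact permutation p = 0.0030, the smallest possible). In cells thinned to 1000 UMIs, 20.6% of cells in each B2m-null isotype lane held a B2m UMI, against 28.8% and 42.1% in B2m-null CD40 and 47.0% to 77.6% in the control lanes. Before thinning, at medians of 15079 to 38708 UMIs a cell, 81.4% to 98.2% did.

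**Figure D3:**
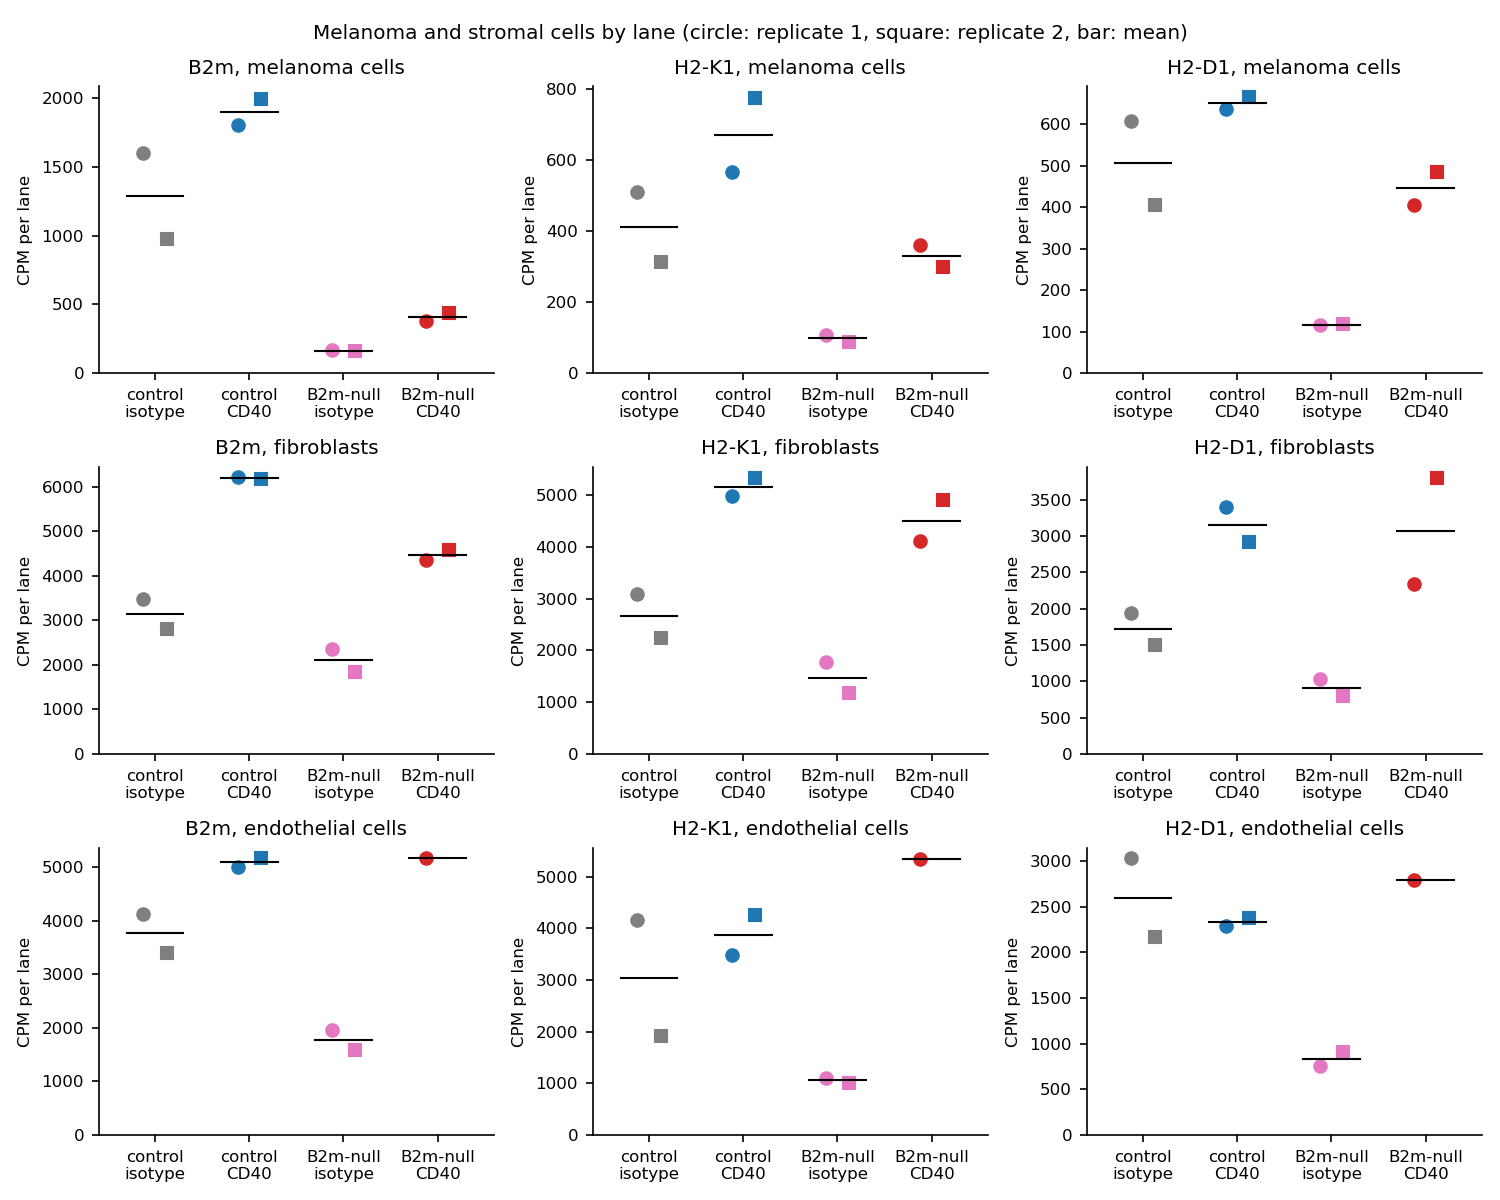
CPM per lane (y axis, from 0) of each member in melanoma cells, fibroblasts and endothelial cells by group, with circles for replicate 1, squares for replicate 2 and bars at the group mean. The B2m-null isotype lanes lie lowest in every panel, and 1 endothelial value is missing because that lane had fewer than 10 cells.

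In fibroblasts of the host, whose B2m is intact by design, all 3 members rose with CD40 in B2m-null tumours. B2m stood at 3491 and 2819 CPM in control isotype, 6228 and 6186 CPM in control CD40, 2361 and 1851 CPM in B2m-null isotype, then 4355 and 4576 CPM in B2m-null CD40. For B2m, lanes did not overlap between any pair of groups, with the 2 control CD40 lanes from 1 pool. Between genotypes under isotype, with 2 lanes against 2, edgeR called no member, in a fit that called 3 of 7155 genes. CD40 in B2m-null tumours raised B2m 2.31-fold (log2 1.21, SE 0.25, adjusted p = 0.026), H2-K1 3.34-fold (adjusted p = 0.0065) and H2-D1 3.66-fold (adjusted p = 0.0065) in the edgeR fit over lanes, where 1.27% of 7155 genes were called. The B2m call was lost without B2m-null CD40 replicate 2 (log2 1.12), B2m-null isotype replicate 2 (1.07), control isotype replicate 1 (1.20) or control isotype replicate 2 (1.21), at adjusted p up to 0.074, and with at most 5% mitochondrial counts (1.17). In control tumours, with control CD40 as 1 pool, the fitted fibroblast changes with CD40 were 1.01, 0.98 and 0.93 (log2, B2m, H2-K1 and H2-D1), without a test.

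In endothelial cells, H2-K1 stood at 4165 and 1906 CPM in control isotype, 3475 and 4264 CPM in control CD40, 1101 and 1010 CPM in B2m-null isotype, then 5336 CPM in the B2m-null CD40 lane with at least 10 of these cells. For CD40 in B2m-null tumours the fitted ratios were 5.17 for H2-K1, 3.42 for H2-D1 and 2.99 for B2m, but they rest on 21 cells of 1 lane and have no replicate check. Under isotype, H2-D1 (log2 -1.65, SE 0.26, adjusted p = 0.0067) and H2-K1 (log2 -1.53, SE 0.31, adjusted p = 0.040) were lower in B2m-null tumours by edgeR over lanes, B2m was not called (log2 -1.09, adjusted p = 0.070), and 0.475% of 5892 genes were called. Both calls were lost without control isotype replicate 1, at log2 -1.38 for H2-D1 and -0.85 for H2-K1, and the H2-K1 call also without B2m-null isotype replicate 2 (log2 -1.46) or with DESeq2 (-1.52). B2m gained a call with DESeq2 (-1.09), without the filter on low counts (-1.07), without B2m-null CD40 replicate 1 (-1.08) and without B2m-null isotype replicate 1 (-1.23), at adjusted p of 0.0022 to 0.030. Pericytes, with 11 to 31 cells a lane, were not tested and are given by lane: H2-K1 stood at 2542 and 1085 CPM in control isotype, 2822 and 2883 CPM in control CD40, 706 and 398 CPM in B2m-null isotype, then 2869 CPM in B2m-null CD40.

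In macrophages all 3 members rose with CD40 in both genotypes. In B2m-null tumours their B2m stood at 2781, 3702, 2981, 3635 and 2361 CPM in the 5 isotype mice and 4936, 4311, 4437 and 4428 CPM in the 4 CD40 mice, without overlap. H2-D1 stood at 1312, 1571, 1289, 1542 and 1402 CPM and at 1970, 1901, 2423 and 2318 CPM, again apart. H2-K1 overlapped, since 1 isotype mouse reached 2757 CPM while the others held 1271 to 2005 CPM, against 2647 to 3047 CPM under CD40. CD40 raised B2m 1.69-fold (log2 0.76, SE 0.13, adjusted p = 0.00035), H2-K1 1.71-fold (log2 0.77, SE 0.16, adjusted p = 0.0012) and H2-D1 1.75-fold (log2 0.81, SE 0.10, adjusted p = 2.8e-05) by edgeR over mice. In that comparison 35.6% of 12009 genes were called, so a call by itself was common. The 3 calls held in each of the 34 alternatives tried.

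In control tumours macrophage B2m stood at 4893, 3607, 3426, 3884 and 3692 CPM under isotype and 5250 and 5554 CPM under CD40, without overlap. The log2 rises were 0.61 for B2m (SE 0.16, adjusted p = 0.010), 0.59 for H2-K1 (SE 0.19, adjusted p = 0.036) and 0.58 for H2-D1 (SE 0.12, adjusted p = 0.0033) by edgeR, against 20.9% of genes called. Control CD40 rests on 2 mice of 1 pool: without its second mouse no member was called, at log2 0.53, 0.53 and 0.55, and the H2-K1 call was also lost without 8 other lanes or mice (log2 0.52 to 0.67). The difference of the CD40 effects between genotypes passed for no member (log2 differences 0.14, 0.19 and 0.22, SE 0.21, 0.25 and 0.16), whereas 16.3% of genes were called for that difference.

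In monocytes CD40 raised the members in B2m-null tumours, and for B2m and H2-D1 its effect differed between genotypes. Their H2-D1 stood at 1428, 1528, 1334, 1541 and 1554 CPM in B2m-null isotype, against 2210, 2201, 2551 and 2438 CPM in B2m-null CD40. In control tumours it stood at 2361, 2208, 2277, 1997 and 2125 CPM under isotype and 2111 and 2149 CPM under CD40, which overlap. CD40 in B2m-null tumours raised B2m 1.70-fold, H2-K1 1.82-fold and H2-D1 1.82-fold (log2 0.77, 0.87 and 0.87, SE 0.09, 0.11 and 0.09, adjusted p = 1.8e-05, 1.5e-05 and 4.6e-06 by edgeR), where 25.0% of 9721 genes were called, and these calls held in all 34 alternatives. In control tumours the changes were 0.16, 0.36 and -0.01 on the log2 scale, none was called, and 10.5% of genes were. H2-K1 was called there without either B2m-null isotype lane (0.35 and 0.36). The difference of the CD40 effects, B2m-null minus control, was 0.60 for B2m (SE 0.15, adjusted p = 0.015), 0.88 for H2-D1 (SE 0.15, adjusted p = 0.0010) and 0.51 for H2-K1 (SE 0.17, adjusted p = 0.055), against 12.7% of genes called. With lanes as the unit, where control CD40 is 1 pool, the fitted values were 0.59 for B2m and 0.88 for H2-D1, without a test. The B2m difference was lost without B2m-null CD40 replicate 1 (0.49), B2m-null isotype replicate 1 (0.55), control isotype replicate 1 (0.62) or the first control CD40 mouse (0.51), at adjusted p of 0.051 to 0.13. That of H2-K1 gained a call with DESeq2 (0.50), without B2m-null CD40 replicate 2 (0.63), B2m-null isotype replicate 1 (0.72) or the second mouse of B2m-null isotype replicate 1 (0.59), at adjusted p of 0.013 to 0.047.

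Under isotype, host myeloid cells of B2m-null tumours held less of each member than those of control tumours. In monocytes B2m stood at 4367, 3572, 3705, 4181 and 3699 CPM in control isotype and 2938, 3201, 2914, 3351 and 2635 CPM in B2m-null isotype, without overlap. B2m fell by 0.44 (adjusted p = 0.0094), H2-K1 by 0.45 (adjusted p = 0.017) and H2-D1 by 0.62 (adjusted p = 0.00052) on the log2 scale by edgeR, where 3.44% of genes were called. With the lane as the unit, 2 lanes against 2, the log2 values were -0.42, -0.48 and -0.59 and none was called (adjusted p 0.35 to 0.51), in a fit that called 0.00% of 11379 genes (954 had an unadjusted p under 0.05). The calls were lost without control isotype replicate 1 for all 3 (log2 -0.44, -0.40 and -0.53), without B2m-null isotype replicate 1 for B2m (-0.39), and without B2m-null isotype replicate 2 (-0.32) or the first control isotype mouse (-0.41) for H2-K1.

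In macrophages the same comparison gave -0.39 for B2m (SE 0.12, adjusted p = 0.0497), -0.52 for H2-K1 (SE 0.15, adjusted p = 0.037) and -0.50 for H2-D1 (SE 0.10, adjusted p = 0.0058) on the log2 scale, where 9.50% of genes were called. B2m overlapped between the groups (2361 to 3702 against 3426 to 4893 CPM), and H2-D1 did not (1289 to 1571 against 1766 to 2129 CPM). The B2m call was lost in 27 of 34 alternatives, the H2-K1 call in 11 and the H2-D1 call in 3, always in the same direction. Leaving out control isotype replicate 1 (log2 -0.35, -0.43 and -0.50) or B2m-null isotype replicate 1 (-0.40, -0.68 and -0.42) ended all 3 calls. Over left-out lanes and mice the log2 values ran from -0.47 to -0.29 for B2m, -0.68 to -0.41 for H2-K1 and -0.56 to -0.42 for H2-D1. Under CD40 no member was called between genotypes in macrophages (log2 -0.25, -0.33 and -0.28) or monocytes (0.17, 0.06 and 0.26), against 10.0% and 9.71% of genes called. Without B2m-null CD40 replicate 2 the macrophage H2-D1 difference was called at -0.48.

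**Figure D4:**
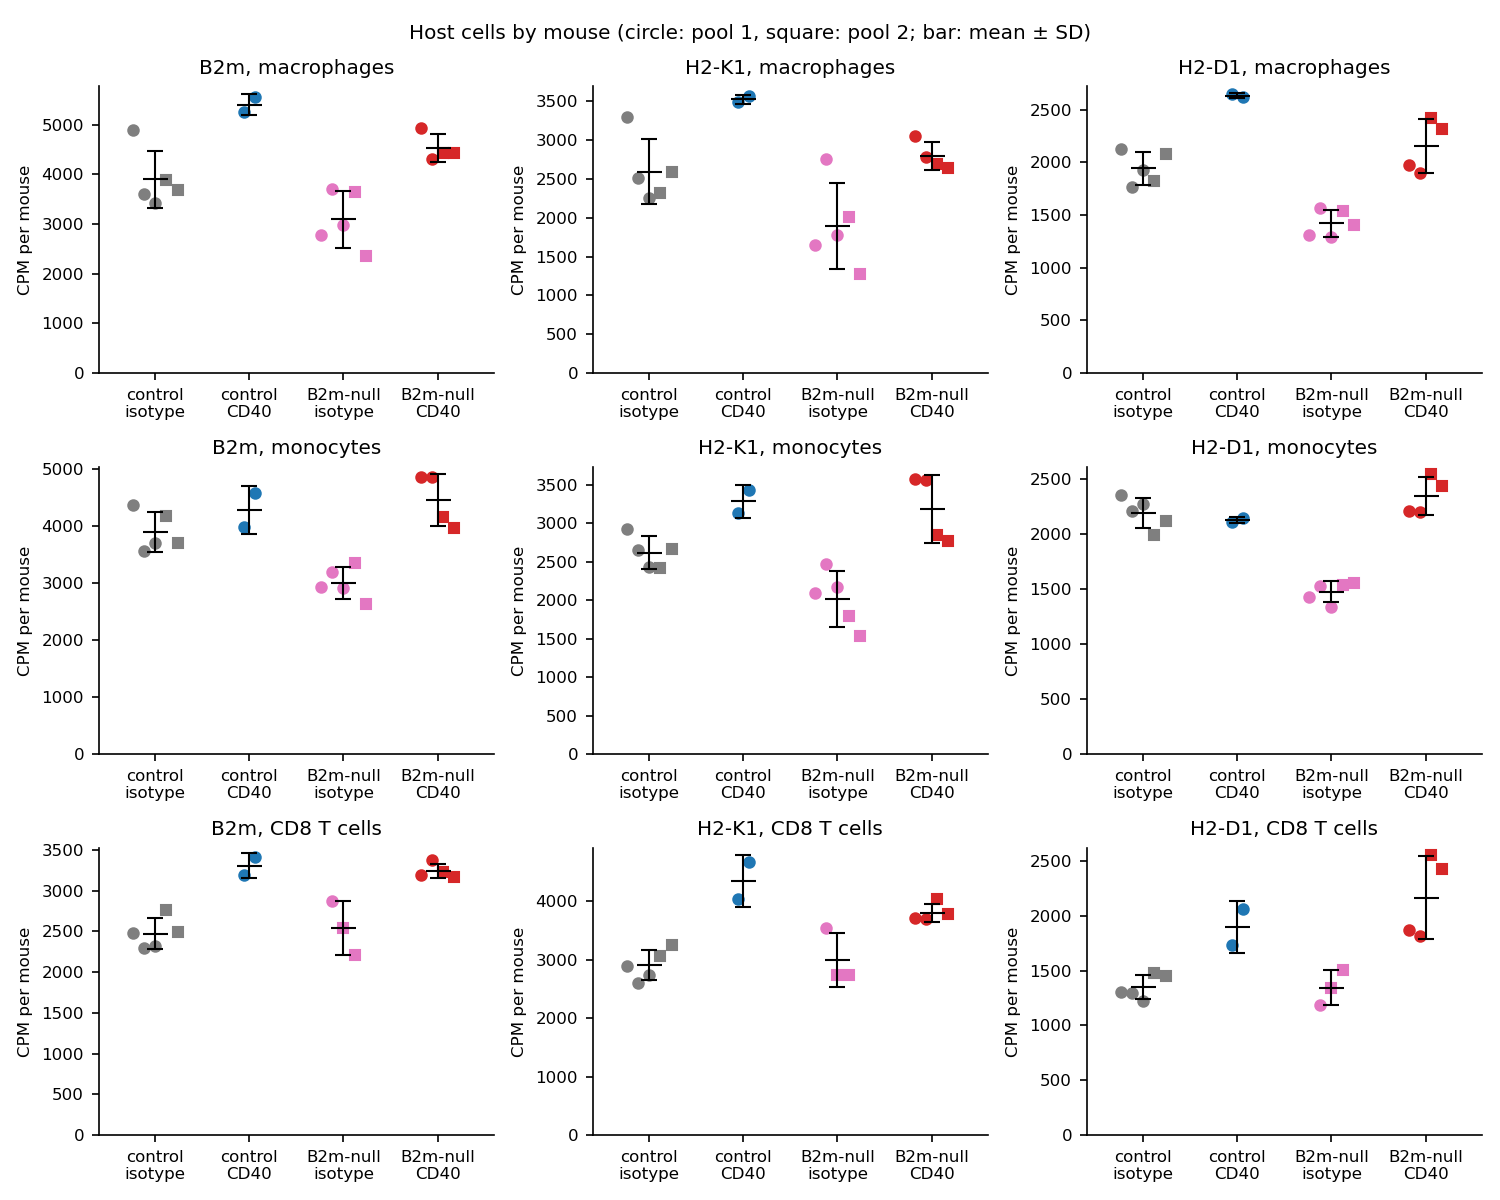
CPM per mouse (y axis, from 0) of each member in macrophages, monocytes and CD8 T cells by group, with circles for the first pool, squares for the second and bars for mean ± SD. In macrophages and monocytes the B2m-null isotype mice are the lowest group, and in CD8 T cells both CD40 groups lie above both isotype groups.

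CD8 T cells, which read class I on other cells and carry it themselves, rose with CD40 in both genotypes, and no member was called between genotypes under isotype. Their B2m stood at 2486, 2301, 2316, 2764 and 2496 CPM in control isotype, 3195 and 3415 CPM in control CD40, 2868, 2536 and 2205 CPM in B2m-null isotype, then 3196, 3371, 3230 and 3165 CPM in B2m-null CD40. The CD40 groups lay above the isotype groups without overlap. In control tumours B2m rose 1.36-fold, H2-K1 1.52-fold and H2-D1 1.43-fold (adjusted p = 0.0081, 0.0012 and 0.022 by edgeR), against 32.4% of 9587 genes called. In B2m-null tumours they rose 1.45-fold, 1.44-fold and 1.81-fold (adjusted p = 0.011, 0.015 and 0.0050), against 4.87% of genes. Under isotype the genotype differences were -0.05, -0.04 and -0.07 on the log2 scale (SE 0.11, 0.11 and 0.15), and 0.198% of genes were called. Calls in control tumours were lost without the second control CD40 mouse (log2 0.39, 0.49 and 0.37) or control isotype replicate 1 (0.38, 0.52 and 0.43). Those in B2m-null tumours were lost without B2m-null CD40 replicate 2 (0.47, 0.40 and 0.53). The B2m and H2-K1 calls there were also lost without B2m-null isotype replicate 2 (0.55 and 0.48) or its second mouse (0.46 and 0.49), and the H2-K1 call without its first mouse (0.50). With lanes as the unit edgeR called no member for CD40 in B2m-null tumours (log2 0.53, 0.51 and 0.94 for B2m, H2-K1 and H2-D1), in a fit that called 0.128% of 10979 genes. In control tumours, with 1 CD40 pool, the fitted lane values were 0.40, 0.60 and 0.51, without a test. Thinning ended the calls of B2m (0.33) and H2-D1 (0.38) in control tumours and of B2m (0.44) and H2-K1 (0.42) in B2m-null tumours, and the limit of 5% mitochondrial counts ended the latter pair too (0.31 and 0.40).

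Other classes gave fewer calls over mice. No B2m-null CD40 mouse had enough cDC1. Over lanes, 2 against 2, edgeR called all 3 members in cDC1 for CD40 in B2m-null tumours, where 281 of 9598 genes were called. Their B2m stood at 1419 and 1795 CPM in B2m-null isotype and 2336 and 2666 CPM in B2m-null CD40. The same comparison over lanes called 1 member in neutrophils, where 66 of 4374 genes were called. CD40 in control tumours raised B2m (log2 0.49) and H2-K1 (log2 0.59) in CD4 T cells, against 9.39% of 5185 genes, and both calls were lost without the second control CD40 mouse (0.35 and 0.47), control CD40 replicate 1 (0.57 and 0.67) or control isotype replicate 1 (0.43 and 0.46). Fitted lane values, without a test, were 0.50 and 0.61. B2m was also lost without the second control isotype mouse (0.46), without the filter on low counts (0.51) and after thinning (0.23). In NK cells CD40 in B2m-null tumours raised H2-D1 (log2 0.83, adjusted p = 0.0085 by edgeR), against 4.09% of 3860 genes. That call was lost without B2m-null CD40 replicate 2 (0.66), with lanes (0.84), with the stricter gate (0.64) and after thinning (0.51). Over left-out lanes and mice the value ran from 0.66 to 1.42. H2-K1 was not called (0.49, edgeR's adjusted p = 0.055) but was in 7 of 33 alternatives, at 0.32 to 0.60, and not with lanes (0.51). In cDC2 the same comparison raised B2m (0.72) and H2-D1 (0.70), against 6.22% of 5615 genes, on 2 CD40 mice that are both of pool 2. Leaving out the first of them (0.71 and 0.59) or thinning (0.52 and 0.23) ended both calls. That of B2m was also lost without the second (0.76) and in the exact permutation (0.54), and that of H2-D1 with lanes (0.69). In mature dendritic cells it raised B2m (0.56) and H2-K1 (0.72), against 3.05% of 6293 genes, on 2 CD40 mice that are both of pool 1. In both classes CD40 thus rests on 1 pool, and pool 2 had the lower ratio of H2-K1 to H2-D1 in macrophages given above. In mature dendritic cells, leaving out either CD40 mouse (0.35 and 0.68 for B2m, 0.64 and 0.73 for H2-K1), thinning (0.31 and 0.29), lanes (0.48 and 0.56) and no filter on low counts (0.40 and 0.56) each ended both calls, and the B2m call was also lost without control isotype replicate 1 (0.55), control isotype replicate 2 (0.55) or the second mouse of B2m-null isotype replicate 2 (0.57).

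Dendritic cells were lower in B2m-null tumours under isotype in part. In cDC1, H2-K1 (log2 -0.58, SE 0.12) and H2-D1 (log2 -0.52, SE 0.09) were called, against 1.16% of 7912 genes. Both calls were lost without control isotype replicate 1 (-0.43 and -0.47) or with lanes (-0.58 and -0.51), and that of H2-K1 without its first (-0.50) or second mouse (-0.56) or with the stricter gate (-0.53). In cDC2, H2-D1 (log2 -0.53, SE 0.10) was called, against 0.837% of genes, a call that was lost in 13 of 34 alternatives at values from -0.57 to -0.42, among them the omission of any of the 4 isotype lanes. B2m was not called in either class (-0.30 and -0.42), but was in cDC1 without B2m-null isotype replicate 1 (-0.51) and in cDC2 without the second mouse of that lane (-0.50). In cDC2 it also passed the single exact permutation test, whose p is unadjusted (-0.41). H2-K1 in cDC2 (-0.28) was called without that lane (-0.61). In mature dendritic cells edgeR called no member (log2 -0.25, -0.32 and -0.46 for B2m, H2-K1 and H2-D1), against 0.127% of 6293 genes, and all 3 had an unadjusted p under 0.05. In single exact permutation tests over 4 B2m-null and 5 control mice, B2m and H2-D1 did not overlap (p = 0.0079 each, the smallest possible) and H2-K1 gave p = 0.016. H2-D1 was also called with DESeq2, after thinning, and without B2m-null isotype replicate 2 or its first mouse. Over the 9 immune classes with a fit, the genotype difference under isotype was negative for every member in every class, with medians of -0.27 for B2m, -0.42 for H2-K1 and -0.50 for H2-D1, and 2, 3 and 4 classes were called. CD40 in B2m-null tumours was positive in all 8 classes with a fit (medians 0.69, 0.62 and 0.81), and 5, 4 and 5 were called. All genes called for the genotype were 0 of 3063 in neutrophils, 1 of 3164 in pDC and 2 of 3860 in NK cells, up to 9.50% in macrophages. For CD40 they were 0 of 3063 in neutrophils and 8 of 2068 in B cells, up to 35.6% in macrophages. Where so few genes were called, a missing call is no measure of the members. Classes share mice and libraries and are not replicates of one another.

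**Figure D5:**
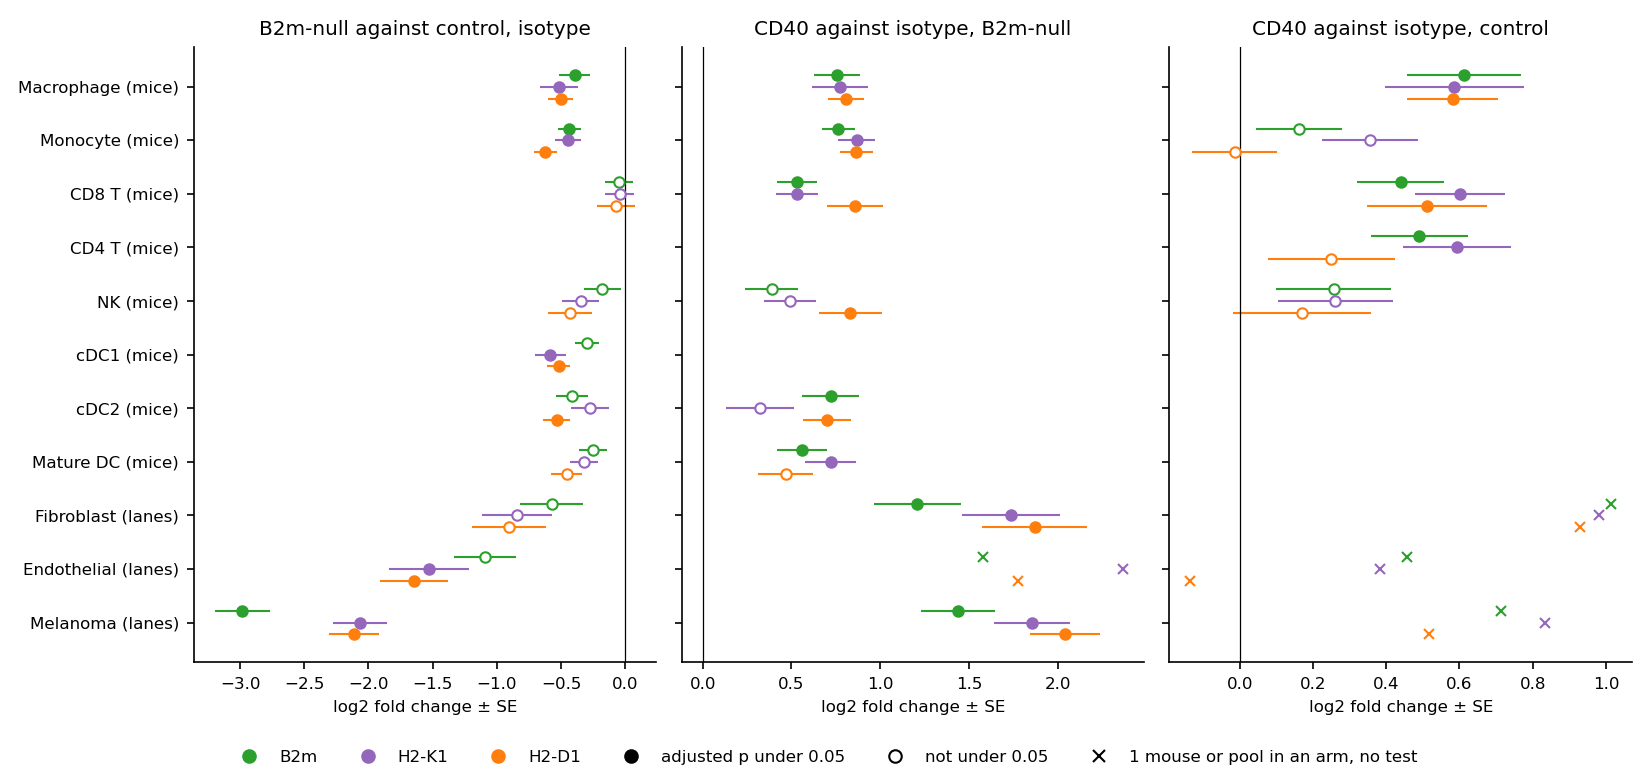
Log2 fold change ± SE (x axis) of each member by class (y axis) for 3 comparisons, from edgeR over mice or, for fibroblasts, endothelial and melanoma cells, over lanes; filled points have adjusted p under 0.05, crosses are fitted values with 1 mouse or pool in an arm and no test, and a class without points had too few mice for a fit. Changes lie below 0 on the left panel, above 0 on the middle panel and mixed in size on the right.

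Genes that serve class I were counted in lists of 9 peptide-loading, 8 proteasome, 16 transactivator and interferon signalling and 14 non-classical class I genes. In macrophages, where 35.6% of all genes were called, CD40 in B2m-null tumours raised 8 of 8 proteasome genes (median log2 1.14, all genes -0.01), led by Psmb8 (2.91-fold) and Psmb9 (2.47-fold), which encode immunoproteasome subunits. Of 13 non-classical genes 9 rose and Fcgrt, the neonatal Fc receptor, fell. H2-M2 rose 9.66-fold and H2-Q7 4.29-fold. Of the peptide-loading genes 4 rose, led by Tapbpl (2.26-fold) and the transporter subunit Tap1 (2.19-fold), and the chaperone genes Canx and Hspa5 fell. Of 16 signalling genes 6 rose, among them Irf1 (log2 1.32), and Jak1 fell, a share near that of all genes. In control tumours, where 20.9% of genes were called, edgeR called 0 of the 8 proteasome genes with CD40 (3 had an unadjusted p under 0.05, median log2 0.14, all genes -0.01), and 6 non-classical genes rose, led by H2-M2 (7.85-fold) and Cd1d1 (2.80-fold), a lipid-presenting molecule. Under isotype, where 9.50% of genes were called, 6 of 8 proteasome genes were lower in B2m-null tumours (median -0.82, all genes 0.01), among them Psmb8 (2.30-fold) and Psmb9 (2.09-fold). Irf1 (2.68-fold), Nlrc5 (1.68-fold), Tap1 (1.86-fold) and H2-Q7 (2.68-fold) were lower too, each named as among the largest called falls of its list.

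Monocytes gave like counts, with 25.0% of all genes called for CD40 in B2m-null tumours, 10.5% for CD40 in control tumours and 3.44% between genotypes under isotype. CD40 in B2m-null tumours raised 8 of 8 proteasome genes, 5 of 9 peptide-loading genes, 6 of 16 signalling genes and 8 of 12 non-classical genes, while 2 fell in each of the last 3 lists. H2-Q7 rose 4.94-fold, Psmb8 2.81-fold and Psmb10 2.40-fold. In control tumours edgeR called 0 proteasome genes (1 had an unadjusted p under 0.05), 3 non-classical genes rose, among them Cd1d1 (3.55-fold) and H2-Q6 (3.41-fold), and H2-T24 fell. Under isotype, Irf1 (2.26-fold), H2-Q7 (2.29-fold), Psmb8 (1.97-fold) and Nlrc5 (1.77-fold) were lower in B2m-null tumours over mice. Each is named as among the largest called falls of its list. With lanes as the unit, 0 of 11379 genes were called in that comparison, so none of these calls held there. In CD8 T cells of control tumours, where 32.4% of genes were called, CD40 raised Irf1 (2.64-fold), Nlrc5 (2.35-fold) and 8 of 10 non-classical genes, whereas the constitutive proteasome genes Psmb5 (1.81-fold) and Psmb7 (1.77-fold) and the chaperone Calr (2.13-fold) fell.

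In melanoma cells by lane, 5 of 8 proteasome genes were lower in B2m-null isotype than in control isotype and 5 rose with CD40 in B2m-null tumours, against 0.933% and 1.80% of all genes called. Psmb8 was 17.8-fold and Psmb9 13.7-fold lower, and they rose 14.7-fold and 11.1-fold with CD40. Nlrc5, the class I transactivator, was 5.59-fold lower and rose 6.67-fold, and Irf1 was 4.33-fold lower and rose 3.89-fold. Tap2 (4.90-fold), Tapbpl (4.71-fold), H2-T23 (5.31-fold) and H2-T22 (3.03-fold) were lower under isotype as well. Both comparisons share the B2m-null isotype lanes. In fibroblasts, against 1.27% of all genes, CD40 in B2m-null tumours raised 5 of 8 proteasome genes, led by Psmb9 (5.11-fold) and Psmb8 (4.93-fold), and 4 of 9 non-classical genes, led by H2-Q7 (4.69-fold). Reads of near-identical H2-Q genes may be split between them.

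Across 47 profiles of class by group, the genes with the pattern most like B2m among 8071 were H2-D1 (Pearson r = 0.948), H2-K1 (0.871), H2-T23 (0.846), Tapbp (0.839) and Irf1 (0.831). For H2-K1 they were H2-Q7 (0.932), H2-D1 (0.912), H2-Q4 (0.911), H2-Q6 (0.905) and H2-T23 (0.883). For H2-D1 they were B2m (0.948), H2-K1 (0.912), H2-T23 (0.878), Tagln2 (0.847) and Tapbp (0.842). Over 14 profiles by class alone, the leading 5 changed in part. H2-T23, Tapbp and Irf1 then left the list of B2m, H2-T23 that of H2-K1, and H2-T23, Tagln2 and Tapbp that of H2-D1. Profiles share mice, lanes and depth, so these values describe likeness and carry no test.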

How the data were processed

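The deposited matrices hold counts of UMIs per gene and barcode, from 10x 3' version 3 libraries with hashtag counts in the same files, per the labels and file headers. Cell Ranger 3.0.0, bcl2fastq 2.20.0.422 and build mm10 are named in the submitters' processing notes. No column of per-sample values was left unmatched.

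A hashtag was taken as 1 mouse. The files hold 3 hashtags in the first isotype pool of each genotype and 2 in the other lanes, where the labels list 3. Cells with 2 hashtags over 2.5 SD above background were removed as doublets, which leaves doublets within a mouse. Mice were assigned with at least 20 hashtag counts at a posterior of at least 0.9. Cells under 200 genes or above 10% mitochondrial counts were dropped, which left 88688. A cell entered a class with at least 3 of its markers above free RNA. Cells of several classes (7140) or none (18207) were left out. A difference from other work on this series may come from these gated names.

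Counts were summed per mouse and class with at least 20 cells (melanoma 10) or per lane with at least 10, the control CD40 lanes joined. They were tested with edgeR 4.0.16 (quasi-likelihood, TMM, filterByExpr, all 4 groups in 1 fit, R 4.3.3), with Benjamini-Hochberg adjustment over all genes tested and a threshold of 0.05. Log2 fold changes are from that fit. Comparisons over lanes in which an arm is 1 pool are given as fitted values without a test. Where leaving out a lane left 1 in an arm, it was assumed to vary like the others. Class orders and ratios used two-sided exact sign-flip tests over mice, and group levels two-sided exact permutation tests (scipy 1.17.1). The smallest exact p was 0.048 for 2 mice against 5 and 0.067 for 2 against 4. The scripts were tested on simulated data. Alternatives included DESeq2 1.42.0.

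The members, lists and rules were chosen with earlier results of these data known. Named are the 3 members in every class, at most the 2 largest rises and falls of each class I list per comparison among those called, the 5 genes most alike, and Ptprc. H2-T10 of the non-classical list had no row of its own. Promoters are RefSeq's, GRCm38.p6. A result that the naming rule would give in 1 list is not reported here.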

Additional observations from a re-analysis of the deposited data

Results flagged for a closer look

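In NK cells, H2-K1 stood at 4819 CPM in the first mouse of the second B2m-null CD40 pool and at 4182 to 4272 CPM in the other 3 mice of that group. Its gap to the nearest mouse was 0.858 of the group's range, above the critical value of 0.829 for 4 samples. This was 1 flag among 57 groups examined, and chance alone flags about 1 in 20.

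In monocytes the effect of CD40 differed between genotypes in the test of the difference itself, for B2m by 0.60 and for H2-D1 by 0.88 on the log2 scale (B2m-null minus control). Both differences set 4 B2m-null CD40 mice of 2 pools against 2 control CD40 mice of 1 pool, so that pool and its group cannot be told apart.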

How the results depend on the processing

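Of 2313 tested values under alternatives for 78 results, 2094 kept direction and side of the threshold, 158 lost a call, 38 gained one and 23 changed sign. For the exact permutation the side was read from a single unadjusted p at 0.05, against a main p adjusted over all genes tested. Calls gained or lost there are therefore not on the same threshold. For the genotype under isotype in CD8 T cells, B2m gave 0.18 with at most 5% mitochondrial counts and 0.032 in the exact permutation of log2 CPM, H2-K1 0.15 and 0.039, and H2-D1 0.047 with at least 50 cells. For CD40 in control melanoma cells (0.45 for B2m and 0.25 for H2-D1 over mice, 0.52 for H2-D1 over lanes), thinning gave -0.13 for B2m and -0.054 for H2-D1, and the mitochondrial limit -0.14 for H2-D1 over mice and -0.058 over lanes. The fitted lane values there, without a test, were 0.71 for B2m and 0.83 for H2-K1. In monocytes thinning gave -0.028 for H2-K1 between genotypes under CD40, and CD40 in control tumours gave 0.081 for H2-D1 with the stricter gate. The B2m difference between genotypes in macrophages under isotype lost its call with RLE scaling (-0.39), lanes (-0.52), the mitochondrial limit (-0.43), the stricter gate (-0.39), thinning (-0.42) and the exact permutation (-0.34). With lanes the calls of H2-D1 in macrophages (-0.57) and of B2m, H2-D1 and H2-K1 in monocytes (-0.42, -0.59 and -0.48) between genotypes under isotype were lost. Thinning ended those of B2m (0.46) and H2-K1 (0.51) for CD40 in control macrophages and of H2-D1 (-1.63) and H2-K1 (-1.01) between genotypes in melanoma cells over mice. H2-K1 for CD40 in control tumours gained a call in melanoma cells without the filter on low counts (0.55). In monocytes it passed only the unadjusted threshold of the exact permutation among these settings (0.33). Lanes hold fewer samples and thinning fewer counts, but thinning also moved the values themselves. In melanoma cells over mice, the genotype difference under isotype went from -2.37 to -1.63 for H2-D1 and from -1.64 to -1.01 for H2-K1. The cause of the changes under lanes, thinning or the other alternatives was not tested.

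Leaving out lanes or mice gave these lowest and highest log2 values for B2m, H2-D1 and H2-K1. Genotype under isotype gave -0.13 to 0.026, -0.45 to 0.047 and -0.15 to 0.013 in CD8 T cells, -0.47 to -0.29, -0.56 to -0.42 and -0.68 to -0.41 in macrophages, and -0.50 to -0.39, -0.72 to -0.51 and -0.66 to -0.32 in monocytes. It gave -1.89 to -1.25 for H2-K1 in melanoma cells. CD40 in control tumours gave 0.53 to 0.72, 0.51 to 0.64 and 0.52 to 0.70 in macrophages and 0.20 to 0.90, -0.059 to 0.63 and 0.041 to 0.93 in melanoma cells. In monocytes it gave -0.085 to 0.080 for H2-D1 and 0.27 to 0.42 for H2-K1. Genotype under CD40 gave -0.48 to -0.11 for H2-D1 in macrophages and -0.094 to 0.19 for H2-K1 in monocytes.

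Neighbouring classes that differed numbered 0 over lanes for each member, where 7 lanes (smallest exact p 0.016) cannot pass for a single pair among 15, so this count is no measure of stability. There cDC1 was above melanoma cells by 1.93 for B2m in 7 of 7 lanes. With the stricter gate, which leaves fewer mice, they numbered 2, 0 and 2 for B2m, H2-K1 and H2-D1, with cDC1 above melanoma cells in 8 of 8 mice for each (log2 1.38, 2.27 and 2.13). After thinning they numbered 4, 3 and 4, but the pairs for B2m changed in part. They were mature dendritic cells above macrophages, macrophages above monocytes (11 of 16 mice), NK above CD8 T cells and cDC2 above cDC1. The main medians put monocytes above macrophages. For B2m cDC1 above melanoma cells was 0.66 in 6 of 9 mice, and CD8 T above B cells 0.40 in 5 of 5 (each adjusted p = 0.080, exact test). The ratio of H2-K1 to H2-D1 differed from macrophages in 3 named classes with the stricter gate (CD8 T, CD4 T and NK cells, besides T cells gated as neither CD4 nor CD8), and in B cells, mature dendritic cells, pDC, neutrophils and cDC1 the exact test no longer passed (adjusted p 0.068 to 0.15). There the log2 differences from macrophages were 0.48 (0.54 in the main gate), 0.18 (0.23), 0.33 (0.31), -0.32 (-0.30) and -0.16 (-0.16), and B cells, with 4 of 4 mice higher, could not go below p = 0.125 (exact).

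Same-numbered lanes correlated at 0.057, 0.295 and 0.307 over 5644 genes in macrophages, not all above 0.1, so the numbers were not taken as pairs. With the replicate block, B2m between genotypes in macrophages gave -0.39 (adjusted p = 0.060). The block ended 1 other call, B2m for CD40 in B2m-null mature dendritic cells, and gained 1, H2-K1 for CD40 in B2m-null NK cells (0.46), where the fit over lanes called no member.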
